A study of Mus musculus with 8 samples.

Results

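The claudin genes Cldn1, Cldn2, Cldn3, Cldn4, Cldn5, Cldn7, Cldn8, Cldn10, Cldn16 and Cldn19 were followed across kidney cells of mice with and without endomucin. They were chosen by symbol, as claudins known from podocytes, endothelium or segments of the kidney tubule, and all 10 had a count in every library. They made up 10 of the 27 numbered claudin genes among the 17326 genes analysed. Cells were separated from kidneys by fluorescence-activated cell sorting, and polyadenylated RNA was sequenced from endothelium and from podocytes of EMCN+/+ (wild type) and EMCN-/- (knockout) mice. Emcn encodes endomucin, a sialomucin of the endothelial surface. Each of the 4 groups held 2 libraries, numbered 2 and 3 in the labels. The labels gave no strain, age, sex, sort marker or number of pooled animals, and did not say whether libraries with the same number shared an animal, so the spread between libraries may be partly technical.

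Claudins are membrane proteins with 4 spans that polymerise into the strands of the tight junction. Each member makes the junction either tighter or selectively leaky to particular ions, so the claudins a cell makes set what can pass between it and its neighbours. Along the nephron different members are used in turn: CLDN2 forms a cation and water pore in the proximal tubule, CLDN10, CLDN16 and CLDN19 shape cation reabsorption in the thick ascending limb, and CLDN3, CLDN4, CLDN7 and CLDN8 belong to the distal nephron and collecting duct. CLDN1 is known from the parietal epithelium that lines Bowman's capsule, and CLDN5, best known as the barrier claudin of brain endothelium, is in the glomerulus a claudin of podocytes.

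The upstream sequences of the members lower in endothelium (Cldn1, Cldn2 and Cldn5), of Cldn15, the claudin higher there, and of Cldn3 and Cldn7, whose levels moved together, are shown here because the counts cannot tell which start site a transcript used. Each line gives the 250 bases before a start site from RefSeq, build GRCm38.p6, 5′ to 3′ on the strand of the gene. Capitals mark matches on either strand to any of 6 motifs. These were the TATA box TATAAA, the GC box GGGCGG, the ETS motif CCGGAA, the forkhead motif TGTTTAC, the E-box CAGGTG bound by SNAI factors and the grainyhead-like motif AACNNGTT.
Cldn1: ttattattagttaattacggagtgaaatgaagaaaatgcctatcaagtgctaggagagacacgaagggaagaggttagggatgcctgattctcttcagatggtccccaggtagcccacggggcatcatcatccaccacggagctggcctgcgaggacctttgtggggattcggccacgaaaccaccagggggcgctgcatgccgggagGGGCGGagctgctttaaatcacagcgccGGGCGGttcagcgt
Cldn2: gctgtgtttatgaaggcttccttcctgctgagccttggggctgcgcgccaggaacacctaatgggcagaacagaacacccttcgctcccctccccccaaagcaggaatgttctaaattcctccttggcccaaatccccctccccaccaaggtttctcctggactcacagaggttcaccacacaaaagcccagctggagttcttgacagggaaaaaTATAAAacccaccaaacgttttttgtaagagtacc
Cldn5: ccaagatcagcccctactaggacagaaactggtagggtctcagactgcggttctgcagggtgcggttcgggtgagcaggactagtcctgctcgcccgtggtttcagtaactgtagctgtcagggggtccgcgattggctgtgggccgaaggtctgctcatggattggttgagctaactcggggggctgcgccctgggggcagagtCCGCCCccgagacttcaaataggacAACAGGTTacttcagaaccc
Cldn15: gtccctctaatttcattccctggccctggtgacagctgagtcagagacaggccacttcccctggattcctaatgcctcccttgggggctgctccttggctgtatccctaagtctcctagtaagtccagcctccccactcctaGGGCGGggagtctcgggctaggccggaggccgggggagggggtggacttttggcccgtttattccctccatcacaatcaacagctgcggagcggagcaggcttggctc
Cldn3: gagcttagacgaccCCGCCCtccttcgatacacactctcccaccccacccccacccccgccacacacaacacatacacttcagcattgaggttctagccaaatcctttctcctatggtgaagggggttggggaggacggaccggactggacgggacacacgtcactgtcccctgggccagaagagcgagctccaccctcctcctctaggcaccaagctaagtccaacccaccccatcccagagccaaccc
Cldn7 first start: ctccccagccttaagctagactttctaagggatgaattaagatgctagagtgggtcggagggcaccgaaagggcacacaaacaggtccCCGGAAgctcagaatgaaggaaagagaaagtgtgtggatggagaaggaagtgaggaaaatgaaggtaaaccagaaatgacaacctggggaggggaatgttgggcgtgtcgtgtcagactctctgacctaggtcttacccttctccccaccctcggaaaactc
Cldn7 second start: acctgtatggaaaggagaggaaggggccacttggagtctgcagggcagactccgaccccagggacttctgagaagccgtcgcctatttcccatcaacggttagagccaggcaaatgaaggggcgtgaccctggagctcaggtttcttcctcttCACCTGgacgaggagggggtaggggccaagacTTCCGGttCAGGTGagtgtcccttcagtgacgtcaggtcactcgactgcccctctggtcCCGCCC

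The Cldn1 window lay at chr16:26371840-26372089 on the minus strand and held 2 GC boxes, at -42 to -37 and -14 to -9 from the start. The Cldn2 window (chrX:139800558-139800807, plus strand) held a TATA box at -35 to -30 and no GC box. The Cldn5 window (chr16:18776597-18776846, plus strand) held a GC box at -45 to -40 and a grainyhead-like match, AACAGGTT, at -20 to -13. The Cldn15 window (chr5:136967619-136967868, plus strand) held 1 GC box, at -108 to -103. Among the 32851 promoters of the same length, 32.7% held the GC box, 12.4% the TATA box and 3.64% the grainyhead-like motif, while 12.03% held the ETS motif, 17.2% the E-box and 3.17% the forkhead motif. The Cldn3 window (chr5:134985964-134986213, plus strand) held 1 GC box, and the E-box occurred 2 times before the second Cldn7 start (chr11:69965171-69965420) and not before the first (chr11:69964529-69964778, both on the plus strand). Cldn10 also had 2 listed starts, of different base composition: 36% of the bases before the first (chr14:118787621-118787870, plus strand) were G or C, against 72.4% before the second (chr14:118854700-118854949), and a median of 52.4% over all promoters. A match describes the letters only. Of the 10 claudins, 9 had an entry, and Cldn8 is named only.

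On GRCm38.p6 the genes lay on 6 chromosomes. Cldn1 (chr16:26356645-26371839) and Cldn16 (chr16:26463135-26482765) were neighbours 91.3 kb apart, and Cldn4 (chr5:134945123-134946934) and Cldn3 (chr5:134986214-134987476) were 39.3 kb apart. Cldn5 (chr16:18776847-18778262) and Cldn8 (chr16:88560826-88563183) were also on chromosome 16. Cldn2 was at chrX:139800808-139811386, Cldn7 at chr11:69964779-69967886, Cldn10 at chr14:118787871-118874525 and Cldn19 at chr4:119255441-119262438. In the annotation Cldn3 overlapped Wbscr25, Cldn10 overlapped Gm52105, Gm41248 and Gm32382, and Cldn19 overlapped Gm12927. Whether strand was used in counting was not given in the sources used here, so reads of these overlapping genes may be shared.

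The libraries held 10478956 to 17386042 counts on the lines analysed, of which 10.1% to 26.2% were mitochondrial. The targeted gene followed the labels: Emcn was at 1972 and 1828 CPM (counts scaled to a common library size) in wild-type endothelium and at 173 and 179 CPM in knockout endothelium. The sort was visible in the markers. The 15 measured endothelial markers summed to 10703 to 14147 CPM in endothelium and 681 to 1026 CPM in podocyte libraries, and the 12 measured podocyte markers summed to 3146 to 4706 CPM in endothelium and 12015 to 24211 CPM in podocyte libraries. Podocyte markers in the endothelial libraries thus stood at 21.6% of their mean in the podocyte libraries. Tubule markers were present in every library: the 4 measured thick ascending limb markers, led by Umod, summed to 1779 to 11984 CPM in endothelium and 1787 to 8012 CPM in podocyte libraries. Wild-type endothelium replicate 3 stood apart on the second principal component, which held 18.6% of the variance, and had the highest thick limb and collecting duct sums of all 8 libraries.

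Per kilobase of exon, Cldn5 and Cldn8 had the highest means of the 10 claudins in all 4 groups. Wild-type endothelium had 170 ± 25.4 CPM per kilobase of Cldn8 (SD, n = 2) and 82.7 ± 8.45 of Cldn5, where single libraries of Cldn10 and Cldn4 (up to 87.9 and 82.6) overlapped those of Cldn5 (76.7 and 88.7), while wild-type podocytes had 243 ± 59.98 of Cldn5 and 182 ± 3.40 of Cldn8. In knockout cells the order of these was the other way round, with Cldn5 at 117 ± 29.0 and Cldn8 at 105 ± 42.9 CPM per kilobase in endothelium and Cldn8 at 228 ± 37.5 and Cldn5 at 186 ± 81.6 in podocytes, but there the libraries of the pair overlapped. The order at the low end differed by cell type. Cldn1 was last in both endothelial groups, at 0.796 ± 0.850 CPM per kilobase in wild type and 0.632 ± 0.341 in knockout, and Cldn19 was last in both podocyte groups, at 4.35 ± 3.03 and 7.11 ± 2.03. Most neighbours in between could not be ordered. In wild-type endothelium the libraries of Cldn10, Cldn7, Cldn4, Cldn16 and Cldn3, from 55.6 down to 18.6 CPM per kilobase, overlapped from one to the next, and so did those of Cldn4, Cldn7, Cldn10, Cldn2, Cldn3, Cldn16 and Cldn1 in wild-type podocytes, from 58.8 down to 19.4. With the longest transcript as the length, up to 5 members of a group took another rank, but Cldn5 and Cldn8 stayed the top pair in each.

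**Figure D1:**
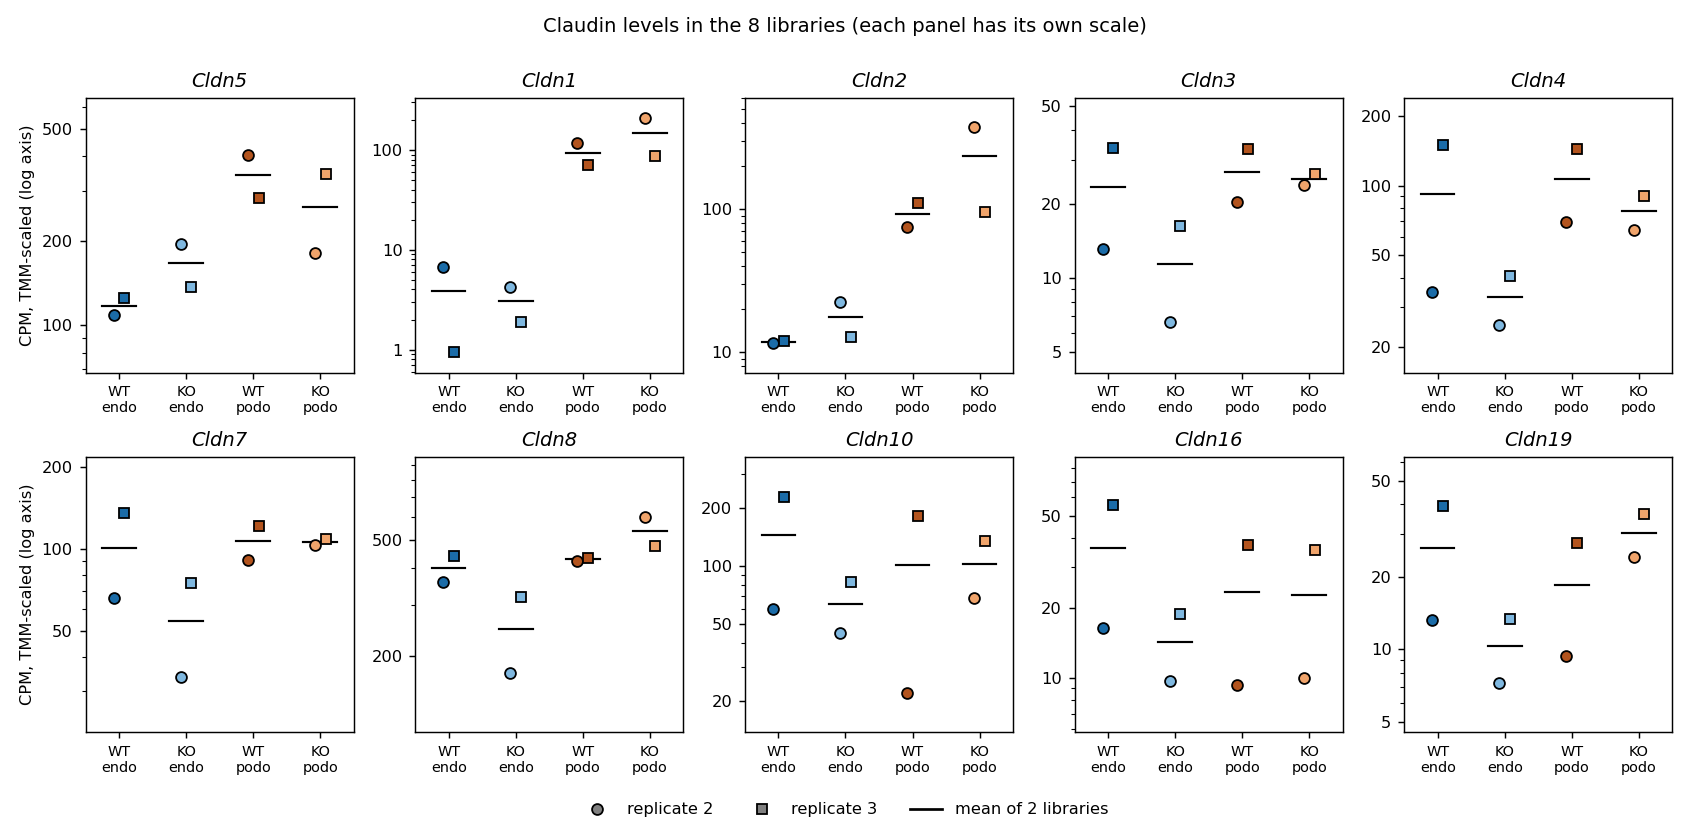
Level of each claudin in the 8 libraries, in TMM-scaled CPM on a log axis with its own scale per panel; circles are replicate 2, squares replicate 3, and bars the mean of 2 libraries. Cldn1 and Cldn2 lie lower in all 4 endothelial libraries than in any podocyte library, while Cldn10 and Cldn16 spread as widely within a group as between groups.

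Between the sorted cell types, 3 of the 10 claudins were lower in endothelium than in podocytes over both genotypes (edgeR adjusted p under 0.05, 4 libraries against 4), and 0 were higher. Of all 16477 genes tested, 11.1% were lower and 7.19% higher by the same rule. The 3 were Cldn1, Cldn2 and Cldn5. All 10 fitted differences were below 0, as were 49.9% of those of all genes, with a median of -0.64 on the log2 scale against 0.002 over all genes, though those of Cldn10 and Cldn16 changed sign with the scaling. Within wild type 7 of the 10 were below 0, with a median of -0.15, and within knockout all 10, with a median of -1.13, against 50.7% of all genes in each. The 3 above 0 in wild type were Cldn10 (0.51), Cldn16 (0.63) and Cldn19 (0.50), none of which passed. The 3 calls held in each of the 16 alternative fits of this comparison. With the replicate number as a block 7 of the 10 passed, all lower, where 3435 of all genes were called against 3020. In such bulk libraries, fewer cells of a type and less RNA per cell cannot be told apart.

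Cldn1 differed most. It was at 6.76 and 0.941 CPM in wild-type endothelium and 4.23 and 1.89 CPM in knockout endothelium, from 13 to 89 counts per library. Wild-type podocytes had 118 and 70.3 CPM, and knockout podocytes 209 and 86.7 CPM. The cell types did not overlap, and the endothelial mean was 2.86% of the podocyte mean. The fitted difference was -5.09 on the log2 scale (SE 0.55, edgeR adjusted p = 8.82e-05). It was -4.61 within wild type (SE 0.76, adjusted p = 0.0030) and -5.57 within knockout (SE 0.80, adjusted p = 0.0014). The size depended on single libraries: over both genotypes it was -6.11 without wild-type endothelium replicate 2, and within wild type -6.63 without that library and -3.80 without replicate 3. Within knockout it was -6.29 without knockout endothelium replicate 2 and -4.81 without knockout podocyte replicate 2. The call passed in each of these fits.

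Of the 6 measured markers of the parietal epithelium, where CLDN1 is known, 3 were lower in endothelium and 3 did not pass, where 11.1% of all genes were lower. They summed to 316 to 408 CPM in endothelial and 852 to 1828 CPM in podocyte libraries, highest in knockout podocyte replicate 2, the library highest in Cldn1. Among the endothelial libraries the sum was highest in wild-type replicate 3, the library lowest in Cldn1. That library also had the highest thick limb and collecting duct sums. Genes of the parietal list differed there: Dkk3 was at its lowest, 1.81 CPM, and Pax8 at its highest among endothelial libraries, 88.8 CPM. None of the 6 was at 0 in all libraries. Per 100 counts of Dkk3, a gene of that list, there were 27.4, 27.0, 42.9 and 44.6 counts of Cldn1 in the podocyte libraries and 37.5 to 131 in the endothelial ones, where Dkk3 was at 1.81 to 11.3 CPM. For the other 5 markers the ratio was lower in all endothelial than in all podocyte libraries, as with Pax8, at 1.06 to 15.1 against 26.7 to 47.7 counts of Cldn1 per 100. The part of parietal cells in the difference was not tested.

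Cldn2, the pore-forming claudin of the proximal tubule, was at 11.5 and 12.1 CPM in wild-type endothelium and 22.6 and 12.7 CPM in knockout endothelium. Wild-type podocytes had 74.9 and 111 CPM, and knockout podocytes 376 and 95.8 CPM. Again the cell types did not overlap; such separation in the lower direction was met by 2 of the 10 claudins (Cldn1 and Cldn2) and by 12.3% of all genes. The difference was -3.36 on the log2 scale (SE 0.40, edgeR adjusted p = 0.000163), and -2.71 without knockout podocyte replicate 2, the library with 376 CPM. Within wild type it was -2.97 (adjusted p = 0.0061) and within knockout -3.74 (adjusted p = 0.0020), the latter -2.44 without knockout podocyte replicate 2 and -4.42 without replicate 3.

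Of the 6 measured proximal tubule markers, 3 were lower in endothelium and 3 did not pass, where 11.1% of all genes were lower. They summed to 371 to 687 CPM in endothelial and 577 to 2671 CPM in podocyte libraries, so these ranges overlapped, and knockout podocyte replicate 2 was again the highest. Lrp2, the endocytic receptor megalin of the proximal tubule, was at 39.4 to 50.9 CPM in endothelium and 49.7 to 183 CPM in podocyte libraries. For each 100 Lrp2 counts there were 27.2 to 44.3 counts of Cldn2 in endothelial and 106 to 206 in podocyte libraries. The ratio separated the cell types for 3 of the 6 markers (Lrp2, Cubn and Aqp1) and overlapped for the other 3 (Miox, Fbp1 and Ggt1), as with Miox, at 18.1 to 224 counts of Cldn2 per 100 in endothelial and 31.2 to 125 in podocyte libraries. The part of tubule RNA in the level of Cldn2 was not tested beyond these ratios, and Cldn2 was not set against markers of other cell types.

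Cldn5 was lower in endothelium too, by a smaller amount. Wild-type endothelium had 109 and 126 CPM and knockout endothelium 195 and 137 CPM, against 404 and 284 CPM in wild-type and 182 and 345 CPM in knockout podocytes. The groups overlapped, because knockout podocyte replicate 2 lay below knockout endothelium replicate 2. The difference was -1.11 on the log2 scale (SE 0.23, edgeR adjusted p = 0.0074). It was -1.55 within wild type (SE 0.34, adjusted p = 0.0141) and -0.66 within knockout, which did not pass (SE 0.33, adjusted p = 0.269) and ran from -1.06 without knockout podocyte replicate 2 to -0.13 without replicate 3. Whether the cell-type difference of Cldn5 itself differed by genotype was tested as an interaction, of 0.89 (SE 0.46, unadjusted p = 0.083), which did not pass and ran from 0.50 to 1.42 with the same libraries left out. Within wild type only Cldn1 of the 3 passed without wild-type endothelium replicate 2 or 3, though the differences moved little: Cldn2 was at -2.94 and -3.01, and Cldn5 at -1.45 and -1.66. Without wild-type podocyte replicate 2 Cldn5 was at -1.27 and did not pass (adjusted p = 0.127).

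The endothelial level of Cldn5 was 46.7% of the podocyte level, where the 12 measured podocyte markers stood at 7.21% (Synpo) to 48.7% (Actn4) and their sum at 21.6%. The ratio of Cldn5 to a marker was higher in all endothelial than in all podocyte libraries for 9 of the 12, and overlapped for Actn4, Clic5 and Cd2ap. Per 100 counts of Podxl, a sialomucin abundant on podocytes and also made by endothelium, Cldn5 had 6.20 to 8.31 counts in the podocyte libraries and 10.2 to 22.9 in the endothelial libraries, without overlap. Per 100 counts of Synpo, the actin-binding synaptopodin of podocytes, it had 7.01 to 19.97 and 32.7 to 130. Per 100 counts of Actn4, an actin crosslinker also made outside podocytes, it had 7.70 to 14.9 in podocyte and 6.96 to 14.4 in endothelial libraries. Per 100 counts of the endothelial adhesion molecule Pecam1 it had 605 to 940 in podocyte and 10.7 to 18.8 in endothelial libraries. How much of the endothelial Cldn5 came from podocyte RNA was not tested.

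**Figure D2:**
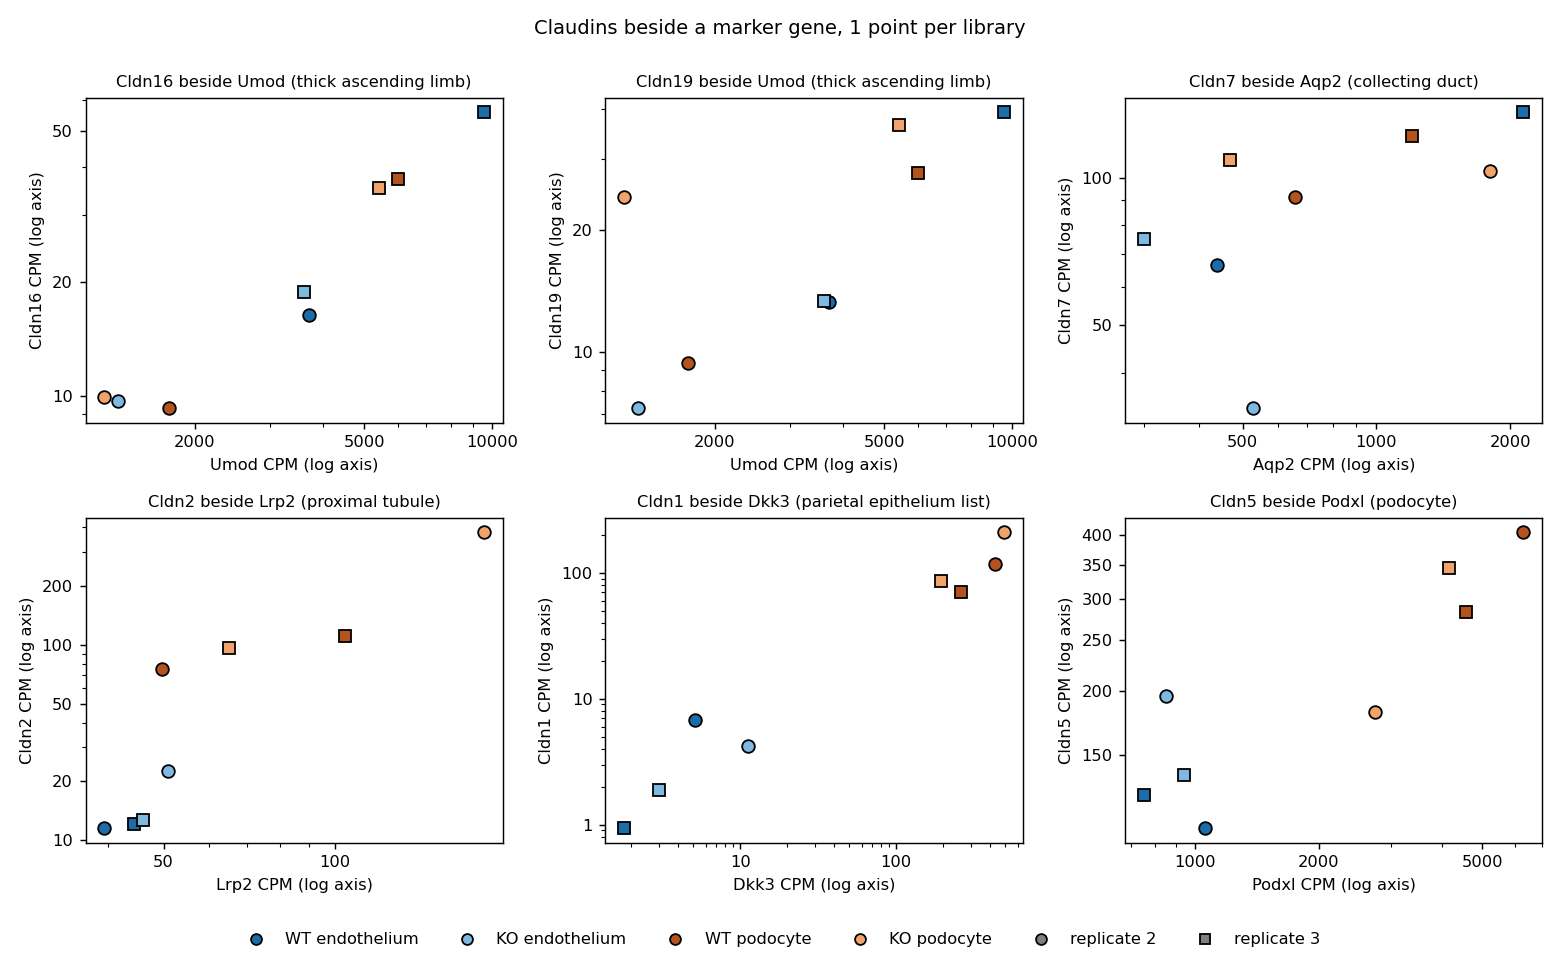
Level of a claudin (vertical) beside that of a marker gene (horizontal) in TMM-scaled CPM, both axes log, 1 point per library; colours are the 4 groups and shapes the replicate number. Cldn16 follows Umod over a 7.80-fold range of Umod in all 4 groups, whereas Cldn5 in endothelial libraries stands at 10.2 to 22.9 counts per 100 of Podxl against 6.20 to 8.31 in podocyte libraries; Podxl is 1 of 12 podocyte markers, and for 3 of them the ratio overlapped.

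The claudins of the distal nephron and collecting duct were present in every library, with no call over both genotypes. Cldn8, a partner of Cldn4 in the chloride pathway of the collecting duct, was the highest of them: 357 and 442 CPM in wild-type endothelium, 175 and 318 in knockout endothelium, 423 and 434 in wild-type podocytes and 600 and 475 in knockout podocytes. Its difference was -0.61 on the log2 scale (SE 0.21, edgeR adjusted p = 0.073), or -0.86 and past the threshold without knockout endothelium replicate 3 (adjusted p = 0.0170), and -0.64 and past it with the replicate number as a block (adjusted p = 0.0362). It passed within knockout, at -1.13 (SE 0.30, adjusted p = 0.0396), but not within wild type, at -0.10. The knockout call of Cldn8 was lost in 9 of 17 alternative fits, among them each fit without knockout endothelium replicate 2 (adjusted p = 0.266), knockout podocyte replicate 2 (0.186), wild-type podocyte replicate 2 (0.084) or wild-type podocyte replicate 3 (0.066). Within wild type 3 of the 10 members passed, against 4.73% of all genes lower by that rule, and within knockout 3 (Cldn1, Cldn2 and Cldn8), against 6.09%. With the replicate number as a block 7 passed within knockout, where more of all genes were called too.

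Cldn4 was at 34.6 and 150 CPM in wild-type endothelium, 24.9 and 40.9 in knockout endothelium, 69.6 and 144 in wild-type podocytes and 64.4 and 90.2 in knockout podocytes. In wild-type endothelium replicate 3 it was thus several times its level in the other endothelial libraries. Cldn7, which also lies along the lateral membrane outside the junction, was at 66.3 and 136, 34.0 and 75.0, 91.4 and 122, and 103 and 109 CPM in the same order of groups. Cldn3 was at 13.1 and 33.7, 6.63 and 16.3, 20.4 and 33.5, and 23.7 and 26.5 CPM. For each of these the groups overlapped, and the cell-type differences of -0.72, -0.52 and -0.67 on the log2 scale did not pass (edgeR adjusted p = 0.270, 0.254 and 0.237). Without wild-type endothelium replicate 3 they were -1.43, -0.83 and -1.09, and Cldn4 passed (adjusted p = 0.0124) while Cldn7 (0.082) and Cldn3 (0.066) did not. Other omissions made them smaller: Cldn4 was at -0.37 and Cldn3 at -0.41 without wild-type endothelium replicate 2, and Cldn7 at -0.29 without knockout endothelium replicate 2. With the replicate number as a block all 3 passed (adjusted p = 0.0275, 0.0418 and 0.0344). Within knockout Cldn7 passed without knockout endothelium replicate 3 (-1.64, adjusted p = 0.0452).

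Over the 8 libraries the ratios of Cldn3, Cldn4, Cldn7 and Cldn8 to single collecting duct markers varied 2.59-fold to 8.59-fold, and overlapped between the cell types for each of the 7 markers. The 7 measured principal-cell markers, led by Aqp2, the vasopressin-regulated water channel, summed to 654 to 3348 CPM in endothelium, highest in wild-type endothelium replicate 3, and to 961 to 3066 CPM in podocyte libraries. For each 100 Aqp2 counts there were 5.71 to 24.97 counts of Cldn7 and 20.6 to 106 counts of Cldn8, ranges of 4.37-fold and 5.13-fold. Cldn3 and Cldn7, by contrast, kept near to each other: 19.5 to 27.5 counts of Cldn3 per 100 of Cldn7 in the 8 libraries, a 1.41-fold range where Cldn3 itself varied 5.08-fold. Of the intercalated cell markers only Foxi1 was measured, at 32.7 to 103 CPM.

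Of the claudins of the thick ascending limb, Cldn10, Cldn16 and Cldn19, none passed the edgeR test between the sorted cell types over both genotypes. Cldn16, which with CLDN19 forms the cation pathway for magnesium and calcium, was at 16.4 and 55.8 CPM in wild-type endothelium, 9.73 and 18.8 in knockout endothelium, 9.33 and 37.3 in wild-type podocytes and 9.94 and 35.4 in knockout podocytes. Its cell-type difference of -0.02 on the log2 scale (SE 0.53, edgeR adjusted p = 0.990) and that of Cldn10, -0.08 (SE 0.57, adjusted p = 0.948), turned above 0 in several alternative fits. Cldn10 was at 60.2 and 228, 45.1 and 82.4, 22.2 and 180, and 68.5 and 135 CPM in the same order. Cldn19 was at 13.3 and 39.2, 7.26 and 13.3, 9.40 and 27.7, and 24.2 and 36.4 CPM, a difference of -0.53 (SE 0.41, adjusted p = 0.443). Without wild-type endothelium replicate 3 the differences of Cldn16, Cldn10 and Cldn19 were -0.59, -0.72 and -1.02, and without wild-type podocyte replicate 3 they were 0.64, 1.01 and -0.04. None of these passed. Within knockout Cldn19 was at -1.56 in edgeR (adjusted p = 0.141), and it passed in DESeq2 (-1.54, adjusted p = 0.0327) and in edgeR with the replicate block (-1.61, adjusted p = 0.0064). In each of the 4 groups, replicate 3 had more of all 3 genes than replicate 2.

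The level of Cldn16 followed that of Umod, the uromodulin gene that marks the thick ascending limb. Umod ranged 7.80-fold over the 8 libraries, from 1225 to 9554 CPM, and Cldn16 5.98-fold, but the ratio stayed between 0.442 and 0.811 counts of Cldn16 per 100 of Umod, a 1.84-fold range. Cldn19 and Cldn10 followed it less closely, at 0.358 to 1.97 and 1.28 to 5.59 counts per 100 of Umod, both highest in knockout podocyte replicate 2. The counts of Cldn10 pool both of its listed starts. Over the 4 measured thick limb markers the ratio varied 1.64-fold to 2.87-fold for Cldn16, 3.37-fold to 5.51-fold for Cldn19 and 1.82-fold to 6.54-fold for Cldn10, and the endothelial and podocyte ranges overlapped for each. How much of these transcripts came from tubule cells or fragments in the sort was not tested.

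A claudin outside the 10, Cldn15, was higher in endothelium. Of 20 further claudin genes listed, 15 could be analysed and 14 were tested; 1 was higher in endothelium and 3 were lower, where 7.19% and 11.1% of all genes were. Cldn15, a cation-pore claudin best known from the intestine, was at 170 and 192 CPM in wild-type and 222 and 176 CPM in knockout endothelium, against 27.2 and 28.4 CPM in wild-type and 44.9 and 30.0 CPM in knockout podocytes. The groups did not overlap, and the difference was 2.55 on the log2 scale (SE 0.18, edgeR adjusted p = 6.17e-06), kept in all 16 alternative fits. Cldn15 had 85.1 ± 7.22 CPM per kilobase (SD, n = 2) in wild-type endothelium, next to the 82.7 of Cldn5. Cldn12, known for a part in paracellular calcium passage, was lower in endothelium, at 41.8 and 40.7 CPM in wild type and 18.9 and 24.3 in knockout, against 94.4 and 85.8, and 95.7 and 61.7 CPM in podocytes, a difference of -1.50 (SE 0.19, adjusted p = 0.000226).

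Cldn20 had 4, 0, 2 and 0 counts in the endothelial and 32, 17, 8 and 28 in the podocyte libraries, and lies within the Tfb1m gene, so its reads may be shared. Its difference passed (edgeR adjusted p = 0.0265) but not in 5 of 15 alternative fits, among them those without wild-type endothelium replicate 3, knockout endothelium replicate 3, wild-type podocyte replicate 2 or knockout podocyte replicate 3. The claudin-domain gene Cldnd1 was lower by 0.62 (adjusted p = 0.0250), a call lost in 5 of 16, among them without wild-type endothelium replicate 3, knockout endothelium replicate 3, wild-type podocyte replicate 2 or knockout podocyte replicate 2. The remaining 10 did not pass, and their means over the 8 libraries were 0.459 to 6.89 CPM.

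**Figure D3:**
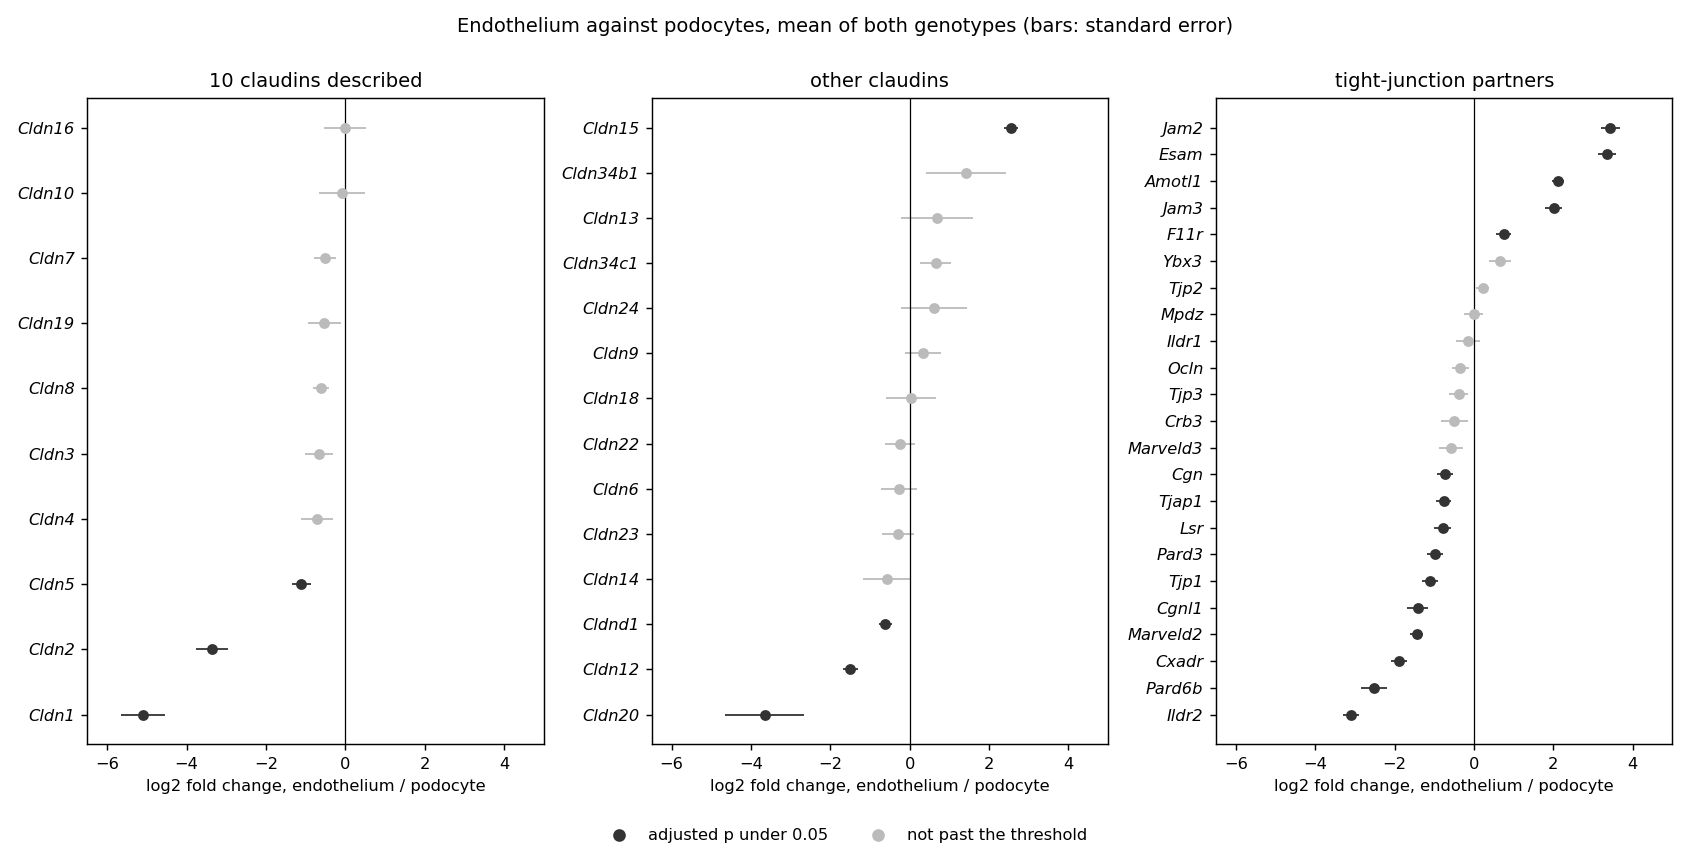
Difference between endothelium and podocytes over both genotypes, as log2 fold change with its standard error, for the 10 claudins, the other claudins tested and tight-junction partners; dark points passed an adjusted p of 0.05. Of the claudins only Cldn15, at 2.55, passes on the endothelial side, while the partners divide into 5 higher and 10 lower.

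The proteins that work with claudins divided by cell type. Of 23 tight-junction partners tested (of 32 listed), 5 were higher in endothelium, 10 lower and 8 did not pass, against 7.19% higher and 11.1% lower of all genes. Esam was also on the endothelial marker list, so its call is not independent of the sort. Those higher were Jam2 (3.44 on the log2 scale), Esam (3.35), Jam3 (2.01) and F11r (0.74), which encode adhesion molecules of the junctional immunoglobulin family, and Amotl1 (2.12), an angiomotin-like scaffold. The lower ones with the largest differences were Ildr2 (-3.10), an angulin of tricellular contacts, the polarity gene Pard6b (-2.53), the adhesion receptor Cxadr (-1.89), Marveld2 (-1.44), which encodes tricellulin, and the cingulin-like scaffold Cgnl1 (-1.42). Ildr2 was at 36.3 ± 4.35 CPM in endothelium and 314 ± 68.4 in podocytes (SD, n = 4 each). Tjp1, which encodes the claudin-binding scaffold ZO-1, was at 168 ± 35.3 and 368 ± 84.0 CPM, a difference of -1.11 (SE 0.19, edgeR adjusted p = 0.0023). Ocln, encoding occludin, did not pass, at -0.35 (adjusted p = 0.316).

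Of 13 genes tested that are known to control claudins, 4 were higher in endothelium and 2 lower, against the same 7.19% and 11.1%. Cdh5 and Erg were also on the endothelial marker list that describes the sort, so their calls are not independent of it. Sox18, an activator of Cldn5 in endothelium, was at 340 ± 63.4 CPM in endothelium and 8.98 ± 2.64 in podocytes (SD, n = 4 each), a difference of 5.24 on the log2 scale. Cdh5, the endothelial cadherin that raises Cldn5, differed by 3.92 and Erg by 2.52. Cldn5 itself was lower in the same endothelial libraries. Foxo1, listed as a controller of claudins but not as an activator of Cldn5, differed by 1.198. Ehf, an epithelial ETS factor, was among the lower ones, by 1.22. The grainyhead-like factor Grhl2 (-0.46, edgeR adjusted p = 0.203) and Sirt1 (0.65, adjusted p = 0.138), a repressor of Cldn1 in podocytes, did not pass.

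No claudin passed the threshold between knockout and wild type in either cell type. In endothelium 0 of the 10 passed at an adjusted p of 0.05, as did 0.00607% of all genes, which was Emcn alone. DESeq2 called 0 of the 10 as well. Fitted differences, knockout against wild type, were below 0 for 8 of the 10 claudins and for 49.7% of all genes, with a median of -0.96 against 0.005 over all genes. Unadjusted, 4 had p under 0.05 in the lower direction, where 2.88% of all genes did: Cldn4 at -1.49 (SE 0.58), Cldn19 at -1.35 (SE 0.59), Cldn7 at -0.89 (SE 0.40) and Cldn8 at -0.70 (SE 0.30), each with an edgeR adjusted p of 0.716. Cldn16 was at -1.34, Cldn10 at -1.18, Cldn3 at -1.04 and Cldn1 at -0.31. Cldn5 and Cldn2 were the 2 above 0, at 0.51 (SE 0.33) and 0.58 (SE 0.53).

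Many of these endothelial values turned on wild-type endothelium replicate 3. Without it Cldn4 was at -0.08, Cldn19 at -0.38, Cldn7 at -0.29, Cldn16 at -0.21, Cldn3 at -0.20 and Cldn10 at 0.07. Cldn8 and Cldn5 moved less, to -0.54 and 0.61. Cldn1 turned to 1.70 without wild-type endothelium replicate 2. Knockout endothelium replicates moved values too: without replicate 2 Cldn8 was at -0.34, Cldn5 at 0.22 and Cldn2 at 0.10, and without replicate 3 Cldn8 was at -1.20 and Cldn2 at 0.92. With 1 library left out, Cldn3 reached -1.83 and Cldn7 -1.58 at the other end of their ranges. In wild-type endothelium replicate 3 the thick limb markers were 2.29 times and the collecting duct markers 3.95 times their level in wild-type endothelium replicate 2. The part of these tubule transcripts in the genotype values was not tested beyond this comparison.

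In podocytes 0 of the 10 passed in edgeR or DESeq2, against 0.00607% of all genes in edgeR. The largest value was that of Cldn2, higher in knockout by 1.35 on the log2 scale (SE 0.52, unadjusted p = 0.0253, edgeR adjusted p = 0.978); 2.8% of all genes were higher at an unadjusted p under 0.05. It fell to 0.04 without knockout podocyte replicate 2, where Cldn2 was at 376 CPM and the proximal tubule markers were 3.13 times their level in the other knockout podocyte library. Cldn19 was at 0.71, Cldn1 at 0.66, Cldn8 at 0.33, Cldn5 at -0.39, Cldn4 at -0.46, Cldn3 at -0.10, Cldn7 at -0.01, Cldn10 at 0.01 and Cldn16 at -0.04. All of these but Cldn19 and Cldn8 changed sign in at least 1 other fit, and with 1 library left out Cldn19 ran from 0.14 (without wild-type podocyte replicate 2) to 1.68 (without replicate 3) and Cldn8 from 0.15 (without knockout podocyte replicate 2) to 0.48 (without replicate 3). All 12 measured podocyte markers had a fitted difference below 0, as did 47.8% of all genes, with a median of -0.59, and none passed. They summed to 24211 and 16456 CPM in wild-type and 12015 and 14404 CPM in knockout podocytes, and their part in the value of Cldn5 was not tested. The interaction, the genotype effect in endothelium less that in podocytes, passed for 0 of the 10 in edgeR and DESeq2 and for 0% of all genes in edgeR; Cldn19 (-2.06, SE 0.83) and Cldn8 (-1.02, SE 0.42) had unadjusted p of 0.031 and 0.035, below 0 like the 1.46% of all genes with an unadjusted p under 0.05 in that direction. With 1 library left out Cldn19 ran from -3.05 (without wild-type podocyte replicate 3) to -1.09 (without wild-type endothelium replicate 3), and Cldn8 from -1.52 (without knockout endothelium replicate 3) to -0.66 (without replicate 2). Standard errors of the genotype differences were 0.30 to 0.82 on the log2 scale, with 2 libraries per group.

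**Figure D4:**
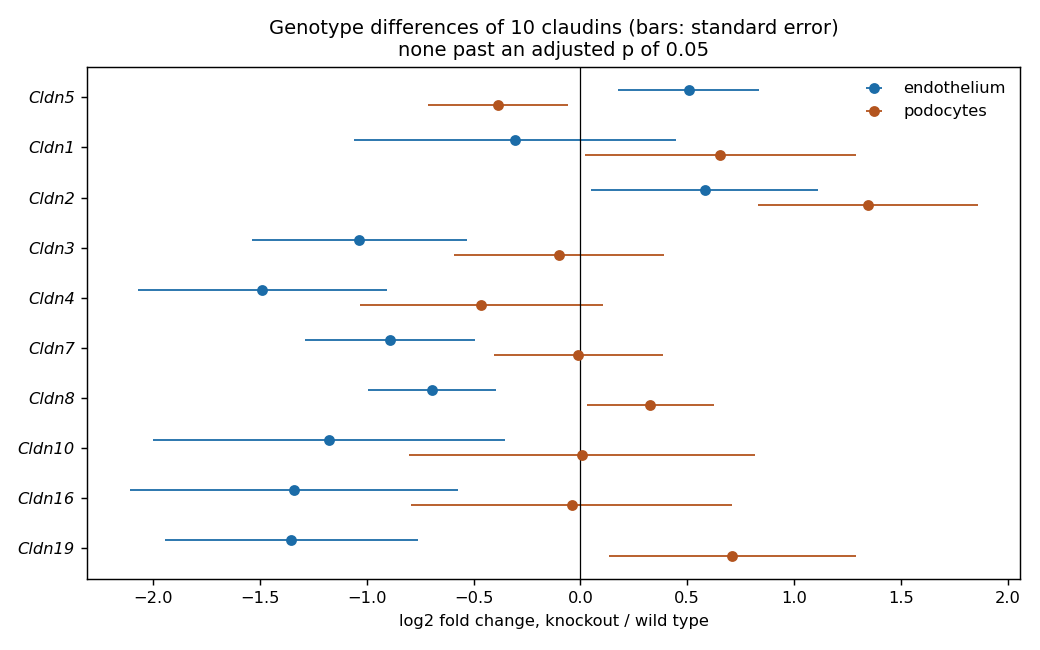
Knockout against wild type for each claudin as log2 fold change with its standard error, blue in endothelium and brown in podocytes; none passed an adjusted p of 0.05. In endothelium 8 of 10 lie below 0, from -0.31 to -1.49, with all 8 libraries in the fit.

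Across the 8 libraries the members fell into sets that rose and fell together. The highest Pearson correlations of log2 CPM among members were those of Cldn3 with Cldn7 (0.994), Cldn3 with Cldn4 (0.948), Cldn1 with Cldn2 (0.929) and Cldn10 with Cldn16 (0.921). The correlations of Cldn5 with the other members ran from 0.740 with Cldn1 down to -0.240 with Cldn10. These values describe 8 libraries that share cell type, sort and scaling, and are no test. Neighbours in the genome did not always pair: Cldn3 and Cldn4 were correlated at 0.948, and Cldn1 and Cldn16 at -0.294.

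Genes tested with a mean of at least 5 CPM were compared, 10080 with the claudins, and claudins were then left out of the ranks. The closest in pattern over the same 8 libraries were C3 (0.992), Plxna3 and Zfp185 for Cldn1, and Phgdh (0.993), Bok and Proser2 for Cldn2. For Cldn5 they were Clip1 (0.977) and Hid1. Cldn7 was closest to Crb3 (0.996), Cep19 and Kdf1, and Cldn3 to Crb3 and Uqcc6. Krt18, Sphk1 and Gm5512 were closest to Cldn4, and Serinc2, Gucd1 and Rassf6 to Cldn8. Cldn16 was closest to Casr (0.982), Ptger3 and Shd, of which Casr and Ptger3 were on the thick limb marker list. For Cldn10 the closest were Rps6ka6, Exosc3 and Lrrc31, and for Cldn19 Tent5b, Pak6 and Irx2. C3 was at 3.22 CPM in endothelium and 215 CPM in podocyte libraries.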

How the data were processed

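The authors deposited 1 table of read counts per gene for the 8 libraries; per the submitters' processing notes, mm10 and DESeq2 were used, in roles not given in the sources used here. Of 22533 gene lines, 5207 (23.1%), with a comma in the description, held fewer than 8 counts and were not analysed here. In 3 columns those lines left unreadable cells, so only for that reason were these deposited counts listed under a different unit. Libraries were TruSeq, per the labels' protocols.

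The test was edgeR 4.0.16's quasi-likelihood F test on counts (R 4.3.3) after filterByExpr (16477 genes) and TMM scaling, 1 mean per group over all 8 libraries, with Benjamini-Hochberg adjustment over all genes and a threshold of 0.05. Standard errors were the log2 fold change over the square root of F. CPM used TMM-scaled sizes, and log2 CPM a prior count of 2. Replicates of a group differed beyond sampling noise in 54.2% to 69.3% of genes. On simulated data with 200 changed genes, among 16477, the cell-type test found 77.5% of the 40 set to an 8-fold difference, 73.8% of the 80 set to 4-fold and 30% of the 80 set to 2-fold, and 6 of its 120 calls were false. Exon lengths came from GENCODE M21, coordinates and promoters from RefSeq GRCm38.p6.

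Members and gene lists were chosen with earlier results of these data known. Named list genes were those past the threshold, up to 5 of largest difference per direction and list, and the 3 genes closest in pattern to each member; Tjp1, Ocln, Grhl2 and Sirt1 were named beside them after their values were seen. A few genes that the rule names are not reported here.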

Additional observations from a re-analysis of the deposited data

How the results depend on the processing

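Cldn1, Cldn2 and Cldn5 kept their call between cell types over both genotypes in all 16 alternatives, and 0 members passed between genotypes or in the interaction in any. The replicate number was not known to pair animals, and deviations of same-numbered libraries were correlated at 0.188 between the endothelial genotypes, 0.157 between the podocyte genotypes, 0.111 between the knockout cell types and -0.129 between the wild-type cell types. With the replicate number as a block, 7 members passed between cell types over both genotypes (Cldn3, Cldn4, Cldn7 and Cldn8 added; 3435 of all genes, against 3020) and 7 within knockout (Cldn3, Cldn4, Cldn7 and Cldn19 added; 2241 of all genes, against 1709). Within wild type 3 passed with the block and 3 with the podocyte numbers crossed, a setting chosen after seeing the data (1831 and 1357 of all genes, against 1481). Scaling by library size only moved the median of all genes by 0.17 (log2) over both genotypes, 0.28 within knockout, 0.32 for knockout against wild type in endothelium and 0.11 in podocytes. The cell-type difference over both genotypes turned above 0 for Cldn16 with DESeq2 size factors (0.0510), library size only (0.0852), the DESeq2 Wald test (0.0514), voom with sample weights (0.16), a mean of at least 5 CPM (0.0490), the block (0.12) and mitochondrial genes left out (0.0579), and for Cldn10 with library size only (0.00917), voom (0.13) and the block (0.0424). Within wild type Cldn8 was at 0.00566 when only the compared libraries were fitted. For knockout against wild type, Cldn1 in endothelium was at 0.21 with voom. In podocytes Cldn7 was at 0.10 with library size only, 0.00701 with voom, 0.0523 at a mean of 5 CPM, 0.0280 with the block and 0.00649 without mitochondrial genes, Cldn16 at 0.0420, 0.00331 and 0.0249 in the first 3 of these, and Cldn3 at 0.000800 with library size only. All genes called between genotypes in endothelium were 0 with library size only or a mean of 5 CPM and 10 with the DESeq2 Wald test, against 1; in podocytes they were 0 with library size only, voom, a mean of 5 CPM or only the compared libraries, and 12 with the Wald test, against 1. The causes were not tested.

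With each library left out in turn, members called were 3 to 4 over both genotypes, 1 to 3 within wild type and 2 to 4 within knockout, and all genes called were 769 to 1672 within wild type, 960 to 1809 within knockout and 0 to 1 for either genotype comparison. These fits assume that a lone library varies like the other groups. Differences ranged from -0.72 to 1.01 for Cldn10 and -0.59 to 0.64 for Cldn16 between cell types, from -0.27 to 0.0438 for Cldn8 within wild type, from -1.13 to 1.70 for Cldn1 and -1.85 to 0.0740 for Cldn10 between endothelial genotypes, and between podocyte genotypes from -0.12 to 1.15 for Cldn1, -0.40 to 0.29 for Cldn3, -0.88 to 0.15 for Cldn4, -0.92 to 0.000804 for Cldn5, -0.18 to 0.21 for Cldn7, -0.82 to 2.20 for Cldn10 and -1.23 to 1.27 for Cldn16. Depth limits the endothelial values of Cldn1, at 13 to 89 counts, and Cldn20, at 0 to 4.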
